A study of Mus musculus with 2 samples.

Results

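The members described here are the long intergenic non-coding RNA (lincRNA) genes detected in G1E-ER4 cells. G1E-ER4 is an immortalized male mouse line of erythroid precursors that lost Gata1 and regained GATA-1 activity through a fusion with the oestrogen receptor, so that hormone switches it on. Both libraries came from cells exposed to 10 nM 17beta-estradiol for 24 hours and are biological replicates 1 and 2 of 1 group, with 20412826 and 18564086 expected counts of polyadenylated RNA. A gene was counted as detected at 1 TPM or more, a unit of transcript number corrected for length and scaled to the library, in both libraries, and its class was taken from the GENCODE M21 annotation. Of 2777 lincRNA genes in the tables, 106 (3.82%) passed that cut, against 41.2% of protein-coding genes and 24.3% of all matched genes. The small nucleolar RNA host genes Snhg12, Snhg20 and Snhg6 were set aside by the rule, which leaves 103 members. The members were thus chosen by their TPM, and their levels are given as a description and carry no test. With 1 group there was no condition to compare. Nothing in the labels says that the replicates were separate cultures, so each SD (n = 2) covers the spread between these libraries only.

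LincRNAs are transcribed by RNA polymerase II, capped and mostly polyadenylated, and do not carry an obvious open reading frame. Some act as scaffolds of nuclear bodies, some bind proteins or microRNAs in the cytoplasm, some are precursors of small RNAs, and for many the act of transcription near another gene is what has been studied. Most are made in few cell types and at low levels, and several have been studied in red cell development.

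The defining erythroid genes stood at the top of these libraries. The adult beta-globin gene Hbb-bs stood at 61175 TPM in replicate 1 and 69726 TPM in replicate 2, and Alas2, the erythroid enzyme of haem synthesis, was at 906 and 929 TPM. The granulocyte gene Elane, the T cell gene Cd3e and the pluripotency gene Nanog were listed at 0 in both.

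Some of the sequences on which the following results turn are shown first. Gm10076, the second most abundant member, contains the whole coding sequence of Rpl41, a ribosomal protein gene. The 75 coding bases of Rpl41, without the stop codon, occur in the Gm10076 transcript of GENCODE M21 with 0 differences and are printed once for both genes.
Rpl41 and Gm10076: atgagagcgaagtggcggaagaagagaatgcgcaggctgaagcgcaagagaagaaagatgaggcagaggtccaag

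Most of Gm26825, the fourth most abundant member, matches Hspa8, the constitutive heat shock protein gene, when read on its other strand. A stretch of 60 bases of the Hspa8 coding sequence is set beside the complement of Gm26825 to show how alike they are, with the 1 base that differs in capitals.
Hspa8: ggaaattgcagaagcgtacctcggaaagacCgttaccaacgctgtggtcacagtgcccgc
Gm26825, complement strand: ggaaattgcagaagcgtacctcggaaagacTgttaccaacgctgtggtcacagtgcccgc

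Members Mir142hg and 2900076A07Rik contain microRNAs whose mature sequences RefSeq gives on GRCm38, the assembly also called mm10. They are shown with the seed (bases 2 to 8) in capitals, since the seed decides which messages a microRNA pairs with. The 3 seeds differ from one another.
mmu-miR-142a-5p in Mir142hg: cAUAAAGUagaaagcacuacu
mmu-miR-142a-3p in Mir142hg: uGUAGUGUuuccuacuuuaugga
mmu-miR-1839-5p in 2900076A07Rik: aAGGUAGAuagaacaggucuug

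1700020I14Rik, which RefSeq names Oip5os1 and which is also known as Cyrano, is known for a long site paired to miR-7 that leads to destruction of that microRNA. A search of its 8300-base leading transcript for the match to the miR-7a-5p seed found 2 places, and 1 of them, at bases 2930 to 2959, is printed beneath the microRNA. The capitals in the site mark the 7 bases that pair with the seed and a further run of 13 bases that pairs with bases 11 to 23 of the microRNA.
mmu-miR-7a-5p: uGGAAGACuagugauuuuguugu
1700020I14Rik site: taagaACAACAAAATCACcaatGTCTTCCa

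The levels of the members spread over nearly the whole range of the libraries. On the TPM scale, 25 members had a mean from 1 to under 2, 49 from 2 to under 10, 19 from 10 to under 100, and 10 had 100 or more. The median of the members' mean levels was 3.64 TPM, against 20.8 TPM over 8853 detected protein-coding genes and 17.8 TPM over all 10333 detected genes. The counts behind the low members were small, since 13 members had fewer than 20 counts in at least 1 library and the lowest had 6. Of the other lincRNA genes in the tables, 2182 had 0 counts in both libraries and 489 had counts but fell below the cut in at least 1 library.

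The counts behind members close to the cut varied. The members just inside it were Gm13830 (1.01 TPM in replicate 1 and 1.84 in replicate 2, from 6 and 10 expected counts), Gm28876 (1.03 and 1.64 TPM, from 11 and 16) and 2610037D02Rik (1.22 and 1.04 TPM, from 58 and 45). Just outside lay Gm6712 (1.01 and 0.94 TPM), Gm26623 (1.14 and 0.97 TPM) and 1110019D14Rik (2.09 and 0.98 TPM). Counting these genes just outside, 14 lincRNA genes reached the cut in replicate 1 alone, and 11 others did so in replicate 2 alone.

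**Figure D1:**
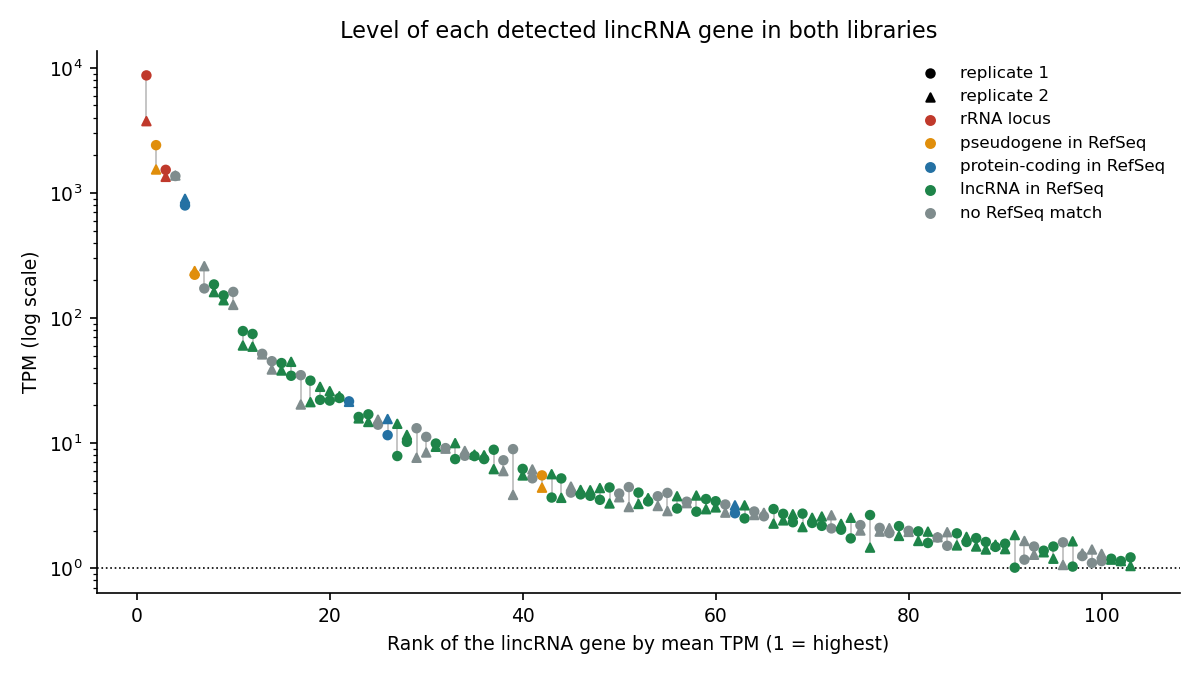
TPM on a log scale of each of the 103 detected lincRNA genes, ranked by mean TPM, with circles for replicate 1, triangles for replicate 2 and a grey line joining them. Colours give the class of the gene in RefSeq, with the genes at the ribosomal RNA locus apart, and the dotted line is the cut of 1 TPM. The 10 highest genes have means of 100 TPM or more. Libraries lie far apart for the first gene, Gm42418, and also for the much lower Gm42743, at 8.95 and 3.85 TPM.

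A few genes held most of the members' RNA. The members' share of all TPM was 1.65% in replicate 1 and 1.06% in replicate 2, a mean of 1.36% ± 0.419 (SD, n = 2). Of the members' own TPM, the 5 highest held 86.8% ± 3.94 and the 10 highest 93.9%. The plot of ranked levels shows the drop after the fifth gene.

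Members 1 and 3 in level lie side by side at a ribosomal RNA (rRNA) locus on chromosome 17. Gm42418 (chr17:39846958-39848788, plus strand) was at 8699.6 TPM in replicate 1 and 3744 TPM in replicate 2. RefSeq gives it as Rn18s-rs5, an 18S rRNA pseudogene, and 95.8% of its 36-base stretches also occur in the annotated rRNA gene CT010467.1. Its neighbour Gm26917 (chr17:39843013-39846341, plus strand) was at 1529 and 1343 TPM. Together they held 55.0% ± 9.83 (SD, n = 2) of the members' TPM, and without them the members held 0.589% of all TPM. How far poly(A) selection removed rRNA in each library was not tested.

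Much of the remaining RNA sat in genes that copy a protein-coding gene. Gm10076 (chr14:105681828-105682211), a pseudogene in RefSeq, was at 2409 TPM in replicate 1 and 1538 in replicate 2, while Rpl41 was at 6404 and 7222 TPM. Of its 36-base stretches, 79.1% occur in Rpl41, and the longest run the pair share is 150 bases of the 384 in Gm10076. Gm26825 (chr5:5781530-5783636) was at 1365 and 1377 TPM, close to Hspa8 at 1349.9 and 1696 TPM. It shares 91.4% of its stretches with the processed pseudogene Gm15459 and 85.4% with Hspa8, with an identical run of 672 bases. Gm28901 (chr1:97024516-97025565) was at 172 and 259.6 TPM and shares 87.9% of its stretches with Hnrnpf, which encodes a splicing protein and was at 414 and 359 TPM. Gm26880 (chr4:146509094-146511764), at 51.7 and 51.15 TPM, is not such a copy by these shares. It lies within the span of Zfp981 and shares 37.7% of its stretches with the processed transcript Gm43305. Its largest share with a protein-coding gene was 17.2%, with Cep85. Because most stretches of Gm10076, Gm26825 and Gm28901 occur in another gene as well, how their reads were divided is an estimate by the authors' quantification, and the levels are uncertain.

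The share of a gene's sequence found nowhere else was therefore computed for each member, as the percent of its 36-base stretches that occur on neither strand of any other gene in GENCODE M21. Its median was 97.7% over the members, and 34 members had 100%. It fell below 50% in 17 members (16.5%), against 4.15% of detected protein-coding genes and 26.6% of the other lincRNA genes. Those 17 genes held 72.2% of the members' TPM and included 7 of the 20 highest. A lower group of them overlaps a protein-coding transcript at its own place, among them Gm26694 with Metrn, Gm26819 with Med10 and Gm26790 with Zfp507, at 2.08, 1.99 and 1.14 TPM in replicate 1. This check covers annotated transcripts only, and copies elsewhere in the genome were not searched. It also rests on GENCODE M21, while the deposited values refer to GENCODE M4, so the shares describe another annotation than the one used to divide reads. CT010467.1 and Gm43305, for example, have no value in these data.

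**Figure D2:**
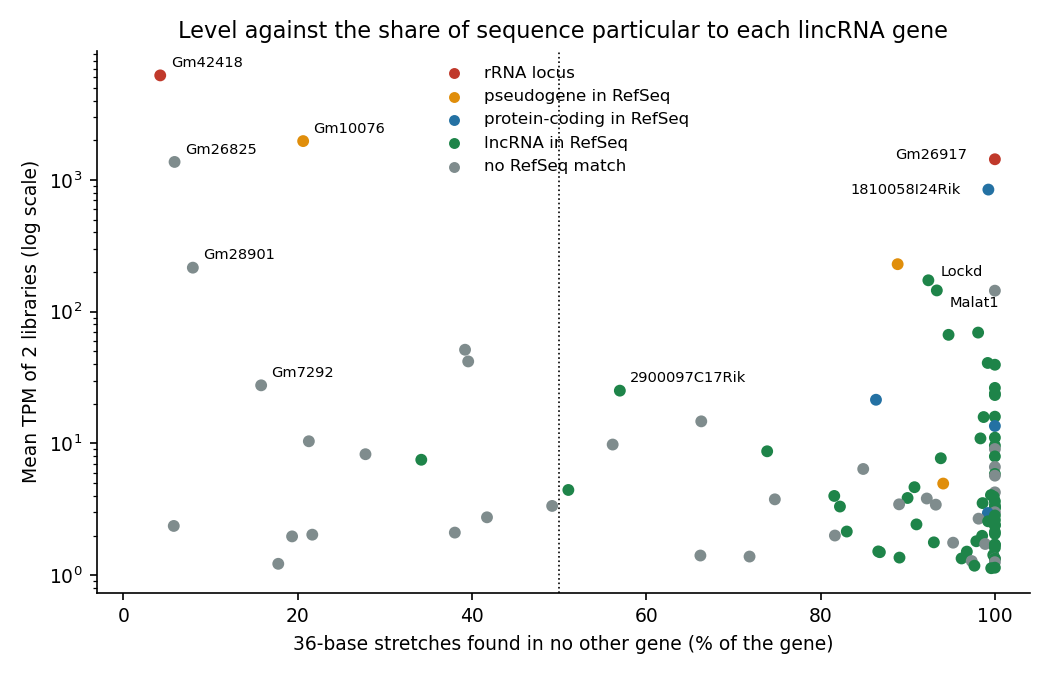
Mean TPM of both libraries, on a log scale, against the percent of each lincRNA gene's 36-base stretches found in no other gene, with 1 point per gene and the colours giving the class in RefSeq. The dotted line marks 50%, and the 17 genes to its left include Gm42418, Gm10076, Gm26825 and Gm28901, while Gm26917 and 1810058I24Rik, also among the 5 highest, are at or near 100%.

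Members free of these overlaps held a small share. A group of 56 members had at least 90% of their stretches to themselves, lay outside the rRNA locus and overlapped no protein-coding gene. Together they held 0.172% of all TPM in replicate 1 and 0.174% in replicate 2, a mean of 0.173% ± 0.00135 (SD, n = 2). 1810058I24Rik made up 0.0794% and 0.0897% of all TPM in that sum. The other 55 genes held 0.0925% in replicate 1 and 0.0841% in replicate 2, a mean of 0.0883% ± 0.00594. The median level of the 56 genes was 3.32 TPM.

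Annotation sources disagreed on what some members are. By symbol, Entrez identifier or synonym, 66 members matched a RefSeq gene, of which 58 were long non-coding RNAs, 4 were protein-coding and the rest pseudogenes. The most abundant protein-coding match was 1810058I24Rik (chr6:35252654-35263496), also called Stmp1, which encodes a mitochondrial micropeptide. It stood at 794 TPM in replicate 1 and 897 in replicate 2, with 99.3% of its stretches its own, and it was the highest member with a protein-coding record. The other protein-coding matches were much lower: Tmem250-ps at 21.6 and 21.4 TPM, Lsmem2 at 11.6 and 15.6 TPM, and D930016D06Rik, named Thoc2l in RefSeq, at 2.75 and 3.18 TPM. The pseudogene Gm7125 was at 222 and 237 TPM, with 88.8% of its stretches to itself.

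Among RNAs of nuclear bodies, both Malat1 and Neat1 were members and Miat was listed at 0. Malat1 (chr19:5795690-5802672), an abundant RNA of nuclear speckles, was at 152 TPM in replicate 1 and 139 in replicate 2. Its level depends on how reads were divided among its transcripts. The 6983-base transcript took 85.5% and 81.1% of the gene's counts but 32.3% and 27.1% of its TPM, while a 656-base transcript led in TPM with 42.4% and 64.0%. Neat1 (chr19:5824708-5845478), a gene of paraspeckle RNA, was at 78.7 and 60.2 TPM. Its leading transcript, the one of 3004 bases, held 98.4% and 98.2% of that. Because these libraries hold polyadenylated RNA, forms of Malat1 or Neat1 without a poly(A) tail may be missed, and the shares cover polyadenylated forms only.

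Of 6 measured lncRNAs listed for blood cells, Lockd was the member and Ttc39aos1, an antisense RNA, was also detected at 2.10 and 2.85 TPM. For comparison, 3.82% of lincRNA genes and 24.3% of all matched genes were detected. Lockd (chr6:134929092-134956798), an RNA downstream of the cell cycle inhibitor gene Cdkn1b, was at 185 TPM in replicate 1 and 161 in replicate 2. It begins 3579 bases past the end of Cdkn1b on the same strand, and Cdkn1b was lower in each library, at 77.7 and 70.6 TPM. Bloodlinc, an RNA studied in red cell production, had 4 and 3 expected counts, or 0.39 and 0.32 TPM, and Gm14005 (Morrbid), known in short-lived myeloid cells, was at 0.

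Among precursors of small RNAs, Mir142hg led. Mir142hg (chr11:87755577-87757270), the precursor of the blood-cell microRNA miR-142, was at 162 TPM in replicate 1 and 127 in replicate 2, with all of its stretches its own. 2900076A07Rik, which spans Mir1839, was at 2.03 and 2.26 TPM from 18.5 and 19.8 expected counts. 2 further members span small nucleolar RNAs, which guide chemical changes in rRNA: Epb41l4aos at 31.6 and 21.2 TPM and 2700038G22Rik, around Snord93, at 4.42 and 3.29 TPM. The mature small RNAs themselves were not measured, since these libraries hold polyadenylated RNA. Mir17hg, the precursor of the miR-17 cluster, crossed the cut in replicate 1 alone, at 1.23 against 0.76 TPM, and Mir155hg, a precursor active in activated lymphocytes, was at 0. The other detected genes of that list, annotated as processed transcripts, were Dleu2 at 14.4 and 12.1 TPM and Mir22hg with 49 and 48 expected counts.

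All 4 measured genes listed for cytoplasmic RNA or microRNA control were detected, and 3 were members. Of lincRNA genes 3.82% were detected, and of all matched genes 24.3%. The list was chosen with earlier results of these data known, so the count is a description. 1700020I14Rik (chr2:119594297-119607502), with the miR-7 site printed above, was at 43.6 TPM in replicate 1 and 38.03 in replicate 2, and 59.4% and 56.0% of that came from the 8300-base transcript in which the site was found. 2900097C17Rik (chr2:156388065-156392979), named Norad in RefSeq and known to bind Pumilio proteins, was at 22.2 and 28.2 TPM. All of this came from a transcript whose length in the tables is 1149 bases, while GENCODE M21 gives the same transcript 4915 bases. The longer version holds 11 copies of the Pumilio motif TGTANATA on the transcribed strand, or 2.24 per 1000 bases, against 0.103 per 1000 bases over all annotated transcripts. Gm7292 (chr6:117716342-117718868) shares 83.6% of its stretches with Norad, holds 9 such motifs in 2527 bases, and was at 34.9 and 20.3 TPM. Gm7292 was the higher of the pair in replicate 1 and Norad in replicate 2. The shared stretches were counted with the 4915-base version of Norad, and how reads were divided between the pair was not tested. The fourth gene of the list, Zfas1, is annotated as a processed transcript and was at 90.5 and 81.1 TPM.

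The replicates ranked the members alike. Across the 103 genes, Pearson's r of log2(TPM + 1) was 0.992 and Spearman's rho 0.970, beside 0.992 and 0.991 over detected protein-coding genes. These are descriptions across genes, which share their libraries and are not independent replicates. Ratios of replicate 1 to replicate 2 were taken from counts scaled by TMM for the 67 members with at least 50 counts on average. 1 of the 67 differed over 2-fold, against 97 of 9311 (1.04%) among all genes with that many counts, where 0.709% were over 2-fold higher in replicate 1 and 0.333% in replicate 2. The median size of the log2 ratio was 0.17 for the members and 0.14 for all these genes. Its counting interval (exact Clopper-Pearson, 95%, for counting error only) left out 0 for 22 of the 67 members, against 46% of all 9311 genes. Such an interval narrows as counts rise, and the members were not matched to the other genes by count. These shares therefore do not show which genes differed less between replicates. The interval lay wholly above 0, higher in replicate 1, for 15 of the 67 members, against 25.5% of all 9311 genes. It lay wholly below 0, higher in replicate 2, for 7 of the 67, against 20.5%. Whatever the interval, 39 of the 67 members were higher in replicate 1 and 28 in replicate 2.

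The member over 2-fold apart was Gm42418 at the rRNA locus, with a log2 ratio of 1.21 (1.20 to 1.22). The next in that direction were Gm7292 at 0.67 (0.51 to 0.82), Gm10076 at 0.64 (0.60 to 0.68), Epb41l4aos at 0.60 (0.26 to 0.94) and Gm17275 at 0.53 (0.19 to 0.89). In the other direction, 1810044D09Rik, at 7.88 and 14.3 TPM, had a log2 ratio of -0.86 (-1.36 to -0.37) and Gm28901 one of -0.59 (-0.70 to -0.49). AU020206 had -0.37 (-0.59 to -0.16), while the intervals of Lsmem2 (-0.94 to 0.07) and 5430416N02Rik (-0.86 to 0.11) included 0. Gm42418, Gm7292, Gm10076 and Gm28901 have under 50% of their stretches to themselves, whereas Epb41l4aos, 1810044D09Rik and AU020206 have 100%. The biological coefficient of variation from edgeR was 0.147 over 101 members, 0.126 without the rRNA locus and 0.101 over protein-coding genes.

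**Figure D3:**
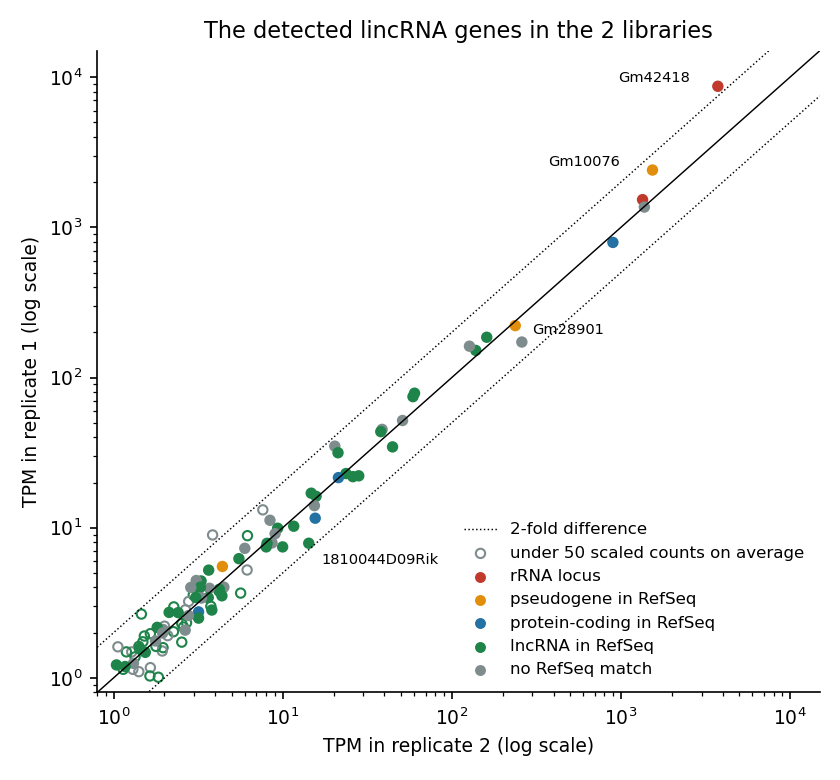
TPM in replicate 1 against replicate 2 for the 103 detected lincRNA genes, both on log scales, coloured by class in RefSeq, with open circles for genes under 50 scaled counts on average. The solid line marks equal levels and the dotted lines a 2-fold difference, and Gm42418 is the filled point beyond the upper dotted line.

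The leading transcript of most members had 2 or more exons in GENCODE M21, and splicing was not read from the data. Malat1 is among these through its 656-base transcript. That transcript led in TPM but held 10.0% and 17.1% of the gene's counts in replicates 1 and 2. The transcript with the highest TPM had 1 exon in 22 members, 2 in 46, 3 in 23 and 4 or 5 in 12. Its length in the deposited values had a median of 1013 bases and ran from 223 to 9720. Counting any annotated transcript, 86.4% of members had 2 or more exons, against 95.4% of the other lincRNA genes. In 61 members a single transcript was listed. Of 39 members with several transcripts and at least 20 counts in both libraries, 27 had a leading transcript at 90% of TPM or less in both. AI480526 was divided among 7 transcripts, the leading one holding 32.9% and 39.2%. A different transcript led in each library in Gm7292, Mkln1os and D730003I15Rik. Gm42743 drew 94.0% and 89.2% of its TPM from a 381-base transcript that GENCODE M21 assigns to the histone gene Hist2h2bb, so its 8.95 and 3.85 TPM are mostly those of a histone transcript.

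Most members lay close to a protein-coding gene. Of the 103, 23 (22.3%) overlapped one, 22 (21.4%) did not overlap but started within 1000 bases of its start on the other strand, 10 (9.71%) lay within 5000 bases on the other strand in another layout, 15 (14.6%) lay within 5000 bases on the same strand, and 33 (32.0%) were farther away. Among the 2674 other lincRNA genes these shares were 11.6%, 5.31%, 2.99%, 4.34% and 75.8%. The nearest protein-coding gene was itself detected for 76 members (73.8%) and for 29.6% of the other lincRNA genes. These shares are given as counts, with no test, because detection chose the members.

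**Figure D4:**
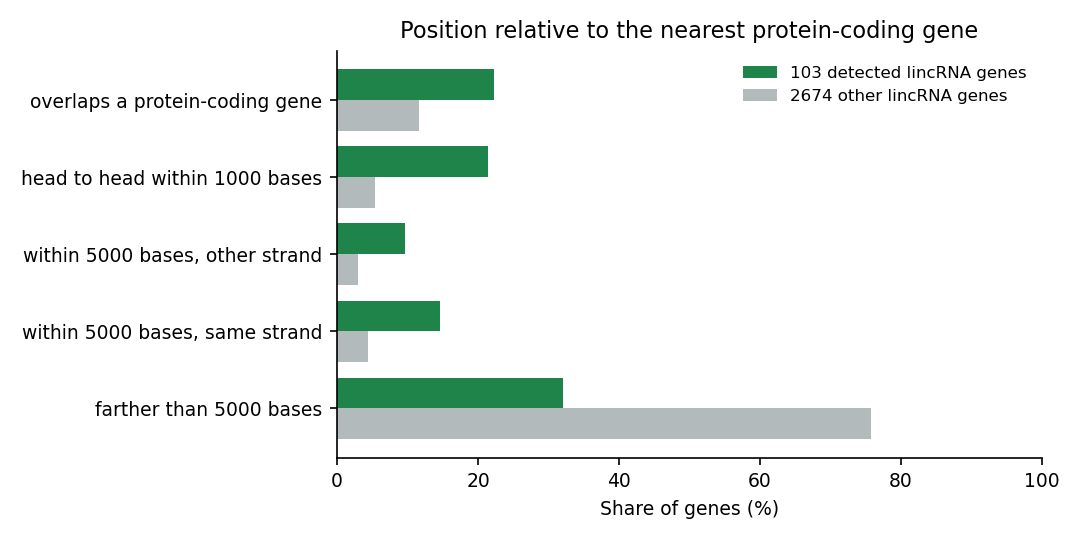
Share of genes, in percent, in each of 5 exclusive positions relative to protein-coding genes, with green bars for the 103 detected lincRNA genes and grey bars for the 2674 other lincRNA genes in the tables. The farthest position holds 32.0% of the detected genes and 75.8% of the others.

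Pairs that start head to head, counting those that overlap, included 28 members (27.2%), against 7.44% of the other lincRNA genes. Of their partners, 27 had a value and all 27 were detected, compared with 52.5% of the partners of the other lincRNA genes. The partner was the higher gene in both libraries in 26 pairs, with a median of 23.3 TPM against 3.31 TPM for the members. AI480526 and Setd1b, a histone methyltransferase gene, were nearly level in replicate 1, at 45.2 and 45.9 TPM. In replicate 2 they were at 38.7 and 51.4 TPM. Only 39.6% of the stretches of AI480526 are its own, so its level is uncertain. 5031425E22Rik was at 17.0 and 14.8 TPM beside Kmt2e, a chromatin regulator gene, at 54.5 and 51.6 TPM. The widest gap in the plotted pairs was that of Gm13830, at 1.01 and 1.84 TPM, beside the dynein light chain gene Dynll1 at 331 and 256.4 TPM. In replicate 2, Gm17586 was at 3.76 TPM beside Mafg, a partner of erythroid transcription factors, at 65.9 TPM. The exception was Gm11110, at 1.59 and 1.96 TPM, whose partner Tnfsf9 was at 1.98 and 1.78 TPM.

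Other named pairs of this kind showed the same order. Gm16001 was at 9.92 and 9.34 TPM and Ogfod2, which starts 33 bases away, at 23.1 and 25.1 TPM. 2010320M18Rik was at 7.87 and 8.08 TPM beside Pik3r2, a kinase subunit gene, at 18.6 and 19.7 TPM. 1700086O06Rik was at 7.45 and 7.99 TPM beside Dele1, a gene of the mitochondrial stress response, at 54.1 and 61.2 TPM. Gm5914 was at 8.85 and 6.19 TPM beside Ctcf, the insulator protein gene, at 79.4 and 85.6 TPM, but 65.8% of its stretches occur in Ctcf itself. Gm14230 and Tgif2 were at 6.22 and 21.1 TPM in replicate 1, and Gm12319 and the muscle enolase gene Eno3 at 5.23 and 9.89 TPM. 2010110K18Rik was at 3.89 TPM in replicate 1 beside the cell cycle phosphatase gene Cdc25c at 16.7 TPM, and Gm2061 at 3.79 TPM beside the manganese transporter gene Slc30a10 at 68.5 TPM. Over the 27 pairs, the levels of both genes had a Pearson's r of 0.32 and a Spearman's rho of 0.35 on the log2(TPM + 1) scale, as a description across genes of shared libraries.

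**Figure D5:**
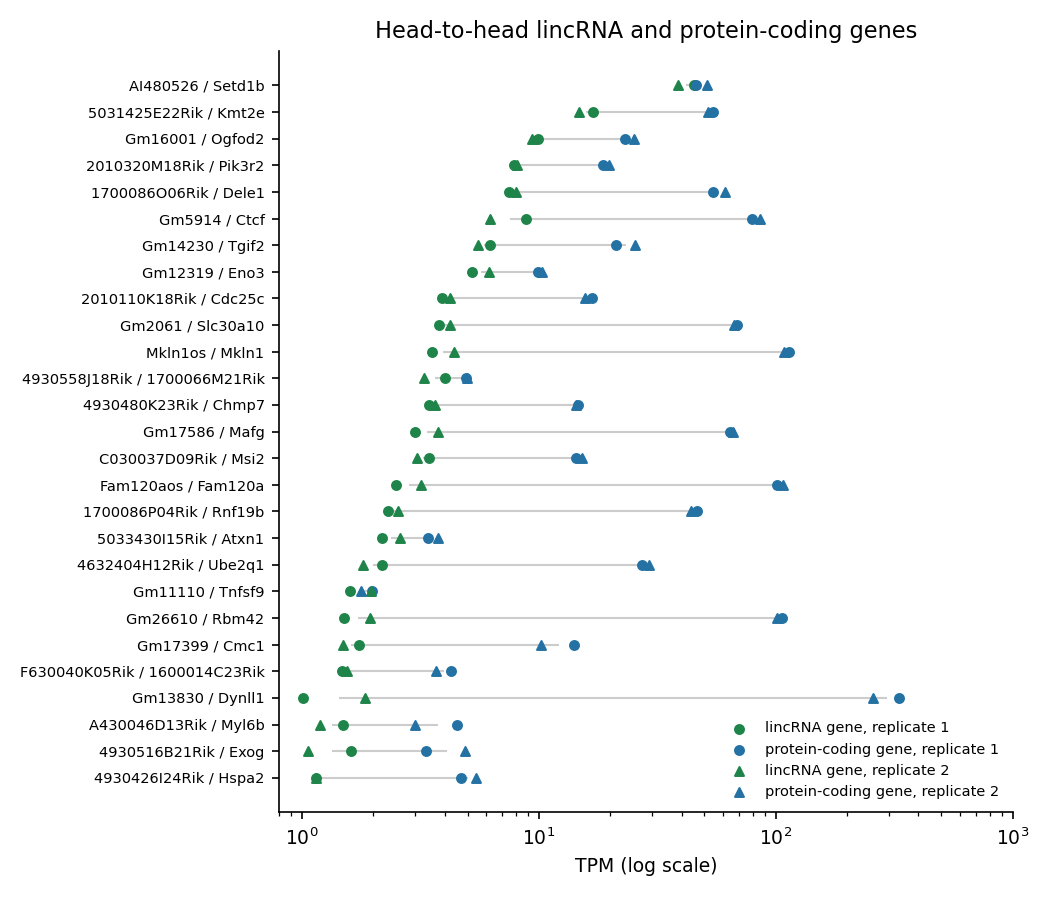
TPM on a log scale of 27 lincRNA genes (green) and of the protein-coding genes that start within 1000 bases on the other strand (blue), with circles for replicate 1, triangles for replicate 2 and a grey line from mean to mean. The blue points lie to the right of the green in both libraries in 26 pairs, and in Gm11110 and Tnfsf9 they mix.

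Members just past the end of a gene on its strand were of both kinds. There were 8 of them within 5000 bases, and 5 were below their neighbour in both libraries. 5830454E08Rik was at 2.97 and 2.27 TPM past the ribosomal protein gene Rpl14, which was at 2377 and 2145 TPM. Lockd and Neat1 were instead above their neighbours Cdkn1b and Frmd8. Overlap with exons of a protein-coding gene affected 20 members. The strand used in counting is not stated in the sources, so reads from the stretch that such a member and the other gene both cover cannot be told apart. Among these members, 2700012I20Rik, Mkln1os and 1300002E11Rik had 100%, 99.9% and 94.7% of their stretches in no other gene. The most abundant of these, 1300002E11Rik, overlaps the kinase gene Map3k13 and was at 74.6 and 58.9 TPM, while Map3k13 was at 0.35 and 0.29 TPM.

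RefSeq promoter sequences of 300 bases, from 250 before to 50 after the start, were matched for 43 members. The motif bound by GATA factors, searched as NGATAN with A or T as the first base and A or G as the last, on both strands, occurred in 8 (18.6%), against 29.8% of all 32851 promoters and 32.6% of those of 752 other lincRNA genes. The members' promoters had a median of 20 CpG dinucleotides and 57.7% GC, against 7 and 52.7% over all promoters. CpG was most frequent in the 14 promoters of members that start head to head with a protein-coding gene, with a median of 38.5 against 13 in the other 29. The promoters that follow show both kinds. 3300005D01Rik was at 22.9 and 23.7 TPM and holds 3 GATA motifs, more than 1700020I14Rik with 1. They are printed with GATA motifs in capitals, and Gm16001 is printed with its 34 CpG dinucleotides in capitals. A motif in a window is a match of letters, and GATA-1 binding was not measured here.
3300005D01Rik promoter (GRCm38, chr17:5798407-5798706, plus strand): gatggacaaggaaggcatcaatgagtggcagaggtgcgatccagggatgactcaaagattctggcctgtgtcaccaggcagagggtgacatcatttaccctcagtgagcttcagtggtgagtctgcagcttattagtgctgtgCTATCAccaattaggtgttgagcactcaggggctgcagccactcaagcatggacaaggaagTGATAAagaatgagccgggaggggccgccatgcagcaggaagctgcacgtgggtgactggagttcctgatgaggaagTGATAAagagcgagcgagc
1700020I14Rik promoter (GRCm38, chr2:119594046-119594345, plus strand): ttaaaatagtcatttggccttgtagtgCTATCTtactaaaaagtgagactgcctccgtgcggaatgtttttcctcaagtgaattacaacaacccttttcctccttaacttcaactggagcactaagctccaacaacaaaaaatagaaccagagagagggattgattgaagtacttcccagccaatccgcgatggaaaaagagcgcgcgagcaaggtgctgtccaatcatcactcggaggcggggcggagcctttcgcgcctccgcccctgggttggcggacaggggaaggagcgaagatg
Gm16001 promoter (GRCm38, chr5:124112197-124112496, minus strand): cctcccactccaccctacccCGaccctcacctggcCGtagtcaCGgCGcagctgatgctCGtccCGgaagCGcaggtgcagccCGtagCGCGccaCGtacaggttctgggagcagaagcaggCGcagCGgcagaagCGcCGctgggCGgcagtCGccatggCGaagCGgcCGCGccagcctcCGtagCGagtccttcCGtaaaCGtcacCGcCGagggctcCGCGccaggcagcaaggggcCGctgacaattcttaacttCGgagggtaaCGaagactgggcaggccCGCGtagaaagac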

How the data were processed

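Polyadenylated RNA was measured in 2 libraries of 1 group, and no untreated library was analysed here. Per the deposited manifests, values refer to mm10 with GENCODE M4. Neither the aligner's nor the quantifier's name is given in the sources used here. For each gene the authors deposited, per the file headers, an expected count, in which a read that fits several places is divided, a TPM (expected count per effective length, scaled per library), and for each transcript the percent of its gene's TPM.

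GENCODE M21, on the same assembly, gave symbols, classes and coordinates, and to it 42462 of 69691 rows matched. The other rows entered only the totals. Expected counts were rounded and scaled by TMM in edgeR 4.0.16 (R 4.3.3), which also gave the dispersion over genes with at least 10 counts. DESeq2 1.42.0 size factors were an alternative. Shared sequence was counted in 36-base stretches of the annotated transcripts with Python 3.11.15. Both steps were tested on simulated data. The deposited counts give a floor of 3 counts, or 0.147 and 0.162 CPM in replicates 1 and 2. Reads carry no molecular identifiers, so intervals and floors cover counting error only. Correlations used a pseudocount of 1 TPM.

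Members and lists were chosen with earlier results of these data known. Named genes were the 15 most abundant members, 3 on each side of the cut, the 5 most different between replicates in each direction, hosts of small RNAs, up to 10 head-to-head members, up to 5 with the least sequence of their own, and detected genes of the listed lncRNAs. Other genes named were chosen after their values were seen.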

Additional observations from a re-analysis of the deposited data

How the results depend on the processing

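A total of 36 alternative settings were tried over 11 results, and 31 values stayed within 1.5 times of the reported count or within the spread between replicates (for the correlation, within 0.01). Settings that leave out the genes of the rRNA locus, or those with under 50% of their sequence to themselves, were chosen after seeing the data. Without the rRNA locus genes the members' share of TPM was 0.589% in place of 1.36%, and the 5 highest held 78.7% of the members' TPM in place of 86.8%. Without members under 50% and the rRNA locus genes the members' share was 0.217%. With at least 10 counts, 2 members in place of 1 were over 2-fold apart, the added gene being Gm42743. Below a limit of 25%, 10 members in place of 17 had little sequence of their own. Leaving out each replicate in turn gave 114 to 117 members, a share of TPM from 1.06% to 1.65%, a share of the 5 highest from 84.0% to 89.6%, and 28 to 29 members divided among transcripts. The number of members was 154 at 0.5 TPM and 74 at 2 TPM. No paired analysis was possible because the libraries form 1 group. Depth limits the low members, 13 of which had fewer than 20 counts in a library.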

Other observations

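No member lay on a sex chromosome. Of 94 lincRNA genes on the X chromosome in the tables, 74 had 0 counts in both libraries and 0 reached 1 TPM in both, while 28.2% of 941 protein-coding genes there did and 4.83% of 2134 autosomal lincRNA genes were members. The X-linked lincRNA gene nearest to the cut was Gm10489, at 1.00 TPM in replicate 1 and 0.81 in replicate 2. Xist, the RNA that silences the inactive X, was at 0.22 and 0.46 TPM, and its regulators Ftx and Jpx were at 0.57 and 0.76 TPM and at 0.22 and 0.04 TPM. Tsix, the antisense partner of Xist, is annotated in another class and was at 5.55 and 5.19 TPM, and Firre, a processed transcript, was at 4.19 and 3.08 TPM. Since strand use in counting is not stated, reads of Xist and Tsix cannot be told apart where they overlap. Of 549 lincRNA genes on the Y chromosome, 548 had 0 counts in both libraries.

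LncRNAs known from other tissues were at or near 0. None of 8 measured genes of that list was detected, where 3.82% of lincRNA genes and 24.3% of all matched genes were. Counts were 0 in both libraries for 4 of them, including the lung and heart RNA Fendrr and the brain RNA Pantr1. The same held for 2182 of all 2777 lincRNA genes, so low values are not particular to this list. Hotair, a transcript of the Hoxc cluster, was at 0.06 and 0.10 TPM. Of 5 measured genes linked to p53 or MYC, those detected were Tug1 at 11.9 and 9.58 TPM and Ptprv at 7.07 and 10.6 TPM, both annotated in other classes, while the lincRNA genes Trp53cor1 (0.75 and 0.80 TPM) and Pvt1 (0.62 and 1.37 TPM) missed the cut.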
